A study of Drosophila melanogaster with 6 samples.

Results

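Yorkie (Yki) peaks on the X chromosome were the 546 entries of the deposited peak list whose sequence name is X, out of 5136 peaks in all, or 10.6% of the list (exact Clopper-Pearson 95% interval 9.80 to 11.5%). The heterochromatic scaffolds named XHet are separate entries and were not counted. The large autosomal arms 2L, 2R, 3L and 3R held 2585 of the 5136 peaks. The rest of the list lay on other sequences, so 10.6% is not the share of the X among the large arms. Chromatin immunoprecipitation followed by sequencing (ChIP-seq) of Drosophila melanogaster embryos aged 8 to 16 h stands behind the list, with 3 Yki ChIP libraries and 3 libraries of input DNA. Both groups came from embryos of 1 strain, named Y cn bw sp. Its genotype carries y[1] and oc[R3.2] on the X. The second chromosome carries Gr22b[1], Gr22d[1] and cn[1] beside CG33964[R4.2], bw[1] and sp[1]. The third carries LysC[1], lab[R4.2] and MstProx[1] beside GstD5[1] and Rh6[1]. Whole embryos were crosslinked in 1.8% formaldehyde for 15 min, and the ChIP libraries used Yki91, a crude rabbit polyclonal serum against the full-length protein. The labels give neither the sex of the embryos nor whether libraries of a group came from separate collections.

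Yki is the transcriptional coactivator that the Hippo growth-control pathway holds in check. It does not bind DNA by itself and reaches chromatin through partners, chiefly the TEAD-family factor Scalloped, to drive genes of growth and cell survival. The X is a special case among fly chromosomes, because males carry a single copy of it and the male-specific lethal complex raises its transcription. In the coordinates used here it runs from the telomere at its low end to the centromere at its high end.

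Each peak has a position in FlyBase release 5 coordinates (1-based), a width and 1 score given by the authors' peak caller. The sources used here do not state the scale of this score, so it serves only to rank and group peaks within the list. There is no value per library, so sequencing depth is unknown and no result below could be set against the spread between replicates. Positions were not assigned to genes, because no gene models of release 5 were used here. Peaks on one chromosome are not independent of each other, and intervals and p-values cover counting error over peaks only. Since the sex of the embryos is not given, the copy number of the X relative to the autosomal arms is unknown. Its effect on the number, width and score of the peaks called was not tested in any comparison below.

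The X peaks had much the same range of scores as those of the large autosomal arms 2L, 2R, 3L and 3R. Scores on the X ran from 7.97 to 367.89 with a median of 30.4 and quartiles of 17.3 and 66.5. The medians of the 4 arms lay on both sides of that of the X, at 27.5 on 3L, 30.1 on 2L, 32.3 on 2R and 33.4 on 3R. The upper 10% began at 136 on the X and between 135 and 147 on the arms. The highest score on the X was below the highest of each arm, which were 421 on 3L, 473 on 3R, 490 on 2L and 532 on 2R.

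**Figure D1:**
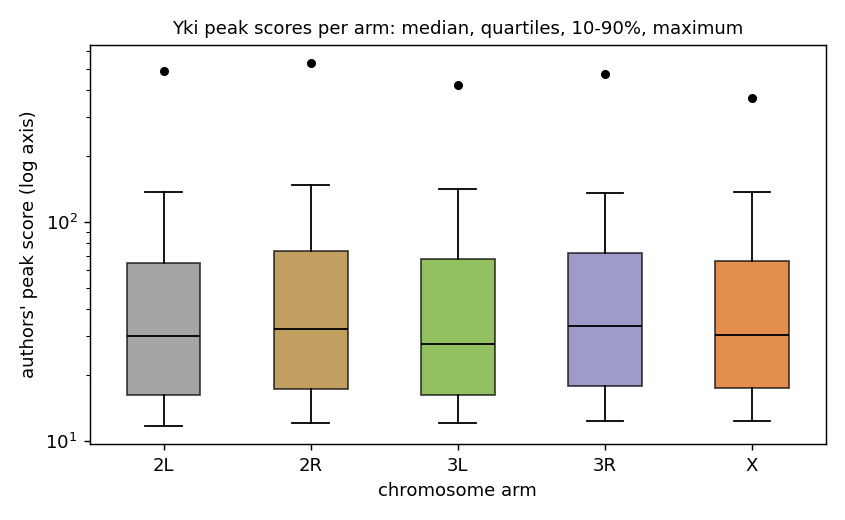
Authors' peak scores on a log axis for each large chromosome arm. Boxes span the quartiles with the median as a line, whiskers reach the 10% and 90% points, and the dot is the highest score. The X box (median 30.4) lies within the span of the other boxes, and its highest dot, at 367.89, is the lowest of the dots.

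No difference between the X and the arms in the share of strong peaks was detected. Of the 546 X peaks, 275 belonged to the strongest 50% of the whole list, or 50.4% (46.1 to 54.6%), against 51.1% (49.2 to 53.0%) of the 2585 peaks on the 4 arms. The strongest 25% took in 127 X peaks, or 23.3% (19.8 to 27.0%), against 24.0% (22.4 to 25.7%). The strongest 10%, with scores of 132.77 and over, took in 60 X peaks, or 11.0% (8.49 to 13.9%), against 11.0% (9.81 to 12.3%). None of the 3 differences passed a two-sided Fisher's exact test, with an adjusted p of 1 for each, and the intervals leave room for differences of a few percentage points.

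The strongest Yki site on the X was a peak of 1219 bp at X:16110642-16111860 with a score of 367.89. It ranked number 30 in the whole list and stood alone, with its nearest neighbour 52.9 kb away. The second, at X:2211375-2211997, scored 345.21 over only 623 bp. Next came X:16453005-16454290 with 336.26, X:15705555-15706396 with 323.7 and X:8315038-8315645 with 304.79. The X held 10.6% of the whole list. No X peak was among its first 20, and 8 were among the first 100. The other 3 of these 8 were X:19047307-19049283 with 281.41, X:13024524-13025814 with 281.3 and X:19576486-19577816 with 278.18.

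The remaining sites of the top 20 scored between 204.93 and 261.83. In order of score they began with X:1977459-1978279 at 261.83 and X:416278-417820 at 255, followed by X:2194622-2195813 at 233.49. A pair at X:7954862-7955705 and X:11900840-11901340 shared a score of 230.85. Their successors were X:7950604-7952297 with 229.53, X:4980340-4980945 with 219.71 and X:6875601-6876216 with 216.47. Then came X:7201445-7202027 with 211.96, X:18206560-18207036 with 207.48 and X:12097372-12097918 with 206.84. Peaks at X:9178000-9178624 and X:16044196-16045074 tied for the last place at 204.93, so 21 peaks are named. Their widths ran from 477 to 1977 bp around a median of 842 bp. Of the 21, 17 had another peak within 10 kb and 4 did not, while 68.5% of all X peaks had one. The most isolated was the peak at 12097372, 180 kb from any other.

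At the other end of the scale, 3 X peaks shared the lowest score of 7.97. They lay at X:16534621-16534824, X:18031964-18032289 and X:21956886-21957112. The next lowest were X:14450323-14450546 with 8 and X:21956621-21956826 with 8.25, and 2 of these 5 peaks thus lay side by side. These 5 weak sites were 204 to 326 bp wide. Scores were often shared exactly: the 546 peaks held 320 distinct values, and 344 peaks had the same score as at least 1 other X peak.

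Stronger X peaks were wider. The median width was 265 bp in the lowest 25% of X peaks by score, 334 bp and 459 bp in the next steps of 25% and 685 bp in the highest. Across all X peaks the median was 406.5 bp, with quartiles of 295 and 604 bp and a range from 201 to 2517 bp. Spearman's correlation of score with width across the 546 peaks was 0.70 and Pearson's was 0.52, a description of peaks that share libraries and a peak caller. On the 4 arms Spearman's values were between 0.70 and 0.75.

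**Figure D2:**
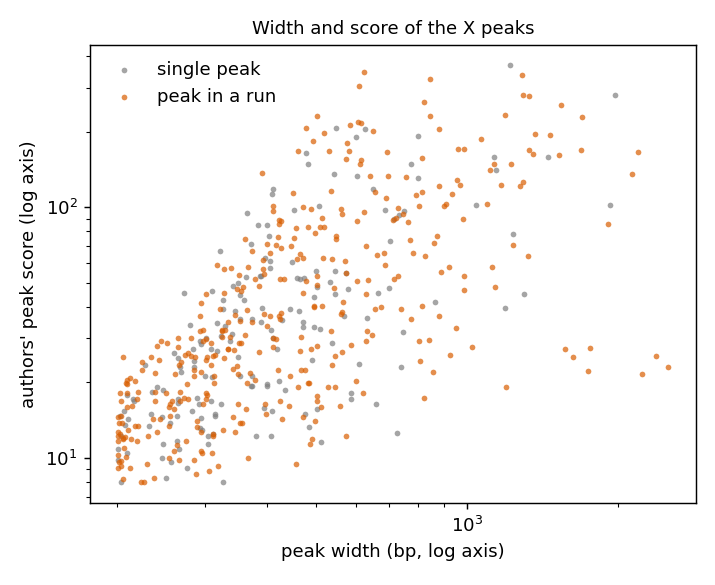
Width (bp, log axis) against authors' score (log axis) for each of the 546 X peaks, orange where another peak lies within 10 kb and grey where none does. Scores climb with width, with exceptions at the lower right, where 7 peaks of at least 1500 bp score under 30.

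With a limit of 1500 bp, the widest X peaks could be split into a strong and a weak group. Of 16 X peaks of at least 1500 bp, 9 scored 85.57 or more and the other 7 scored under 30, with none between. Peaks under this limit did fill that range, for example 1300 bp with a score of 45.1 and 1323 bp with 63.7. The weak group held the 3 widest peaks of the X: X:12827168-12829684 with 2517 bp and a score of 22.97, X:2505181-2507561 with 2381 bp and 25.44, and X:2507768-2509997 with 2230 bp and 21.68. The next in width were strong, namely X:11607567-11609762 with 2196 bp and a score of 166.23 and X:7193715-7195847 with 2133 bp and 135.29. Of the 7 weak wide peaks, 4 formed adjacent pairs at 2 places. Beside the pair from 2505181 to 2509997, the peak at 12827168 directly followed X:12825347-12827107 with a score of 27.3. A further 2, X:10991600-10993226 and X:10994702-10996446 with scores of 25.31 and 22.22, lay in the same run of 5 with 2 other peaks between them. The seventh, at X:6921015-6922585 with 27.28, had no other weak wide peak in its run. Such peaks were 1.28% of the X list and, with 14 peaks, 0.542% of the 4 arms, limits chosen after the values were seen and not tested.

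The median width on the X was the lowest of the 5 large arms. Arm medians were 415 bp on 3L, 442 bp on 3R, 448 bp on 2R and 457 bp on 2L. The share of peaks wider than the median of the list was 49.8% (45.5 to 54.1%) on the X and 54.5% (52.6 to 56.5%) on the arms. This comparison was chosen after the data were seen, and its adjusted p in Fisher's exact test was 0.0630 over the 4 comparisons chosen in that way. Peaks of 1 kb or more made up 8.42% of the X and 10.6% of the arms (adjusted p = 0.140, Fisher's exact test). The share was close to that of the X on 3L (8.44%) and 3R (8.96%), and higher on 2R (11.6%) and 2L (14.1%). Among the strongest 50% of the list the share wider than the list median differed by -8.04 percentage points (X minus arms, Fisher's exact test, adjusted p = 0.00577). With 1 peak per run it differed by -3.41 points and did not pass (Fisher's exact test, adjusted p = 0.546). Counted as covered sequence, Yki peaks took up 283111 bp of the X, or 12626 bp per Mb, against 14126 to 16522 bp per Mb on the arms.

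The X carried 24.4 Yki peaks per Mb, the lowest density of the 5 large arms. The densities of the others were 25.3 on 2L, 26.5 on 3R, 26.6 on 3L and 29.0 on 2R. Taken pair by pair, the X was below 2R, at a ratio of 0.840 (95% interval 0.747 to 0.944, exact conditional binomial test, adjusted p = 0.0131 over 4 pairs). Its ratios to 3L (0.916, 0.816 to 1.03), 3R (0.920, 0.822 to 1.03) and 2L (0.961, 0.853 to 1.08) did not pass (exact test, adjusted p = 0.192, 0.192 and 0.513). With each run of neighbouring peaks taken as 1 unit, the ratio to 2R was 0.751 (adjusted p = 0.000964 in the exact test) and that to 3R, at 0.833, also passed (exact test, p = 0.0296 after adjustment). Among the strongest 25% of the list the ratio to 2R was 0.768 and did not pass (exact test, adjusted p = 0.111). Without the 2 densest windows of 100 kb on the arms, which both lie on 2L and hold 58 peaks, the ratio to 2L was 1.06.

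Along the X, the telomeric 50% held 57.7% of the Yki peaks, but the first 1 Mb at the tip held only 16 peaks. The 22 full bins of 1 Mb held between 9 and 41 peaks, with a median of 24.5. The 3 richest were 3 to 4 Mb with 41 peaks, 1 to 2 Mb with 38 and 7 to 8 Mb with 37. Together the 3 Mb from 1 to 4 Mb held 115 peaks, or 21.1% of those on the X, at 38.3 per Mb and a median score of 35.9. The bin at 7 to 8 Mb had the highest median score, 57.1, and the most peaks of the strongest 10% of the list, 9 of the 60. The bin from 3 to 4 Mb held 7 of the 60.

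The 3 poorest bins were the last 3, next to the centromere. They held 9 peaks at 20 to 21 Mb, 10 at 21 to 22 Mb and 4 in the final 0.423 Mb, or 9.49 per Mb over this stretch. Its median score was 15.6, its highest score was 121.72, and none of its 23 peaks belonged to the strongest 10% of the list. That level took in 11.0% of all X peaks. How much of this stretch reads can be mapped to was not measured. A sparse proximal end with low scores was also seen on 2R, 3L and 2L, but not on 3R. The proximal 1 Mb held 11 peaks on the X, 13 on 2R, 13 on 3L and 17 on 2L, but 25 on 3R. Median scores there were 11.31 on the X, 17.1 on 2R, 14.25 on 3L and 13.49 on 2L, but 37.5 on 3R. Over their whole length 2R, 3L, 2L and 3R had 29.0, 26.6, 25.3 and 26.5 peaks per Mb. These proximal values were not tested. On XHet, the scaffolds of X heterochromatin, the list held 5 peaks with scores of 43.38, 29.12, 8.86, 9.82 and 12.47.

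With every peak counted, the telomeric 50% held a larger share of peaks on the X than on the 4 arms as a group. At the tip itself the order was the reverse. The first 5% of the X held 3.30% of its peaks, against 4.34 to 9.66% on the arms. The telomeric 50% of the X held 315 of its 546 peaks, or 57.7% (53.4 to 61.9%), against 1240 of 2585, or 48.0% (46.0 to 49.9%), on the 4 arms. Arm by arm the share was 45.5% on 2R, 45.9% on 3R, 50% on 3L and 50.9% on 2L. The difference of 9.72 percentage points had an adjusted p of 0.000162 in a two-sided Fisher's exact test chosen after the data were seen. With 1 peak per run the difference was 4.17 points and did not pass (Fisher's exact test, adjusted p = 0.546). With the strongest 50% of the list alone it was 12.99 points (Fisher's exact test, adjusted p = 0.000357).

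**Figure D3:**
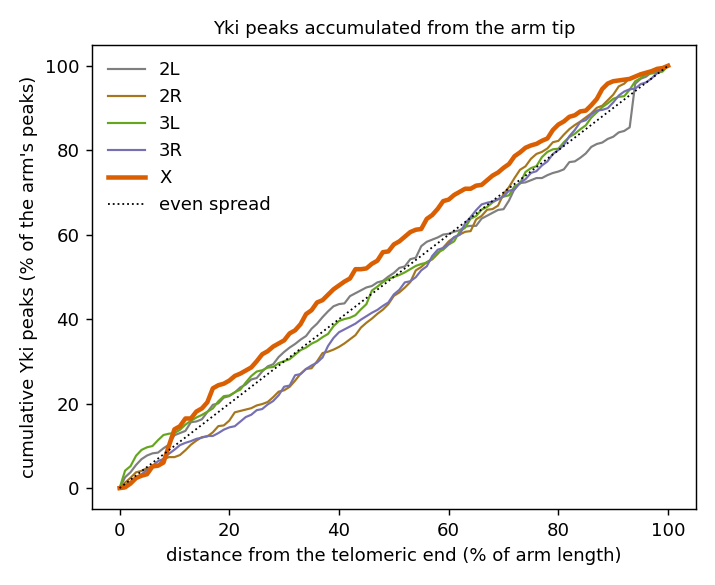
Cumulative share of each arm's Yki peaks against distance from its telomeric end, in percent of arm length. The dotted diagonal is an even spread. The X line (thick orange) runs above the other lines through the middle of the arm and has gathered 57.7% of its peaks at 50% of its length. The step near the right end of 2L is the pair of 100 kb windows with 35 and 23 peaks.

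Stretches without a peak took up more of the X than of any of the 4 arms. The X had 67 gaps of at least 100 kb, which made up 55.0% of its length, against 38.4% of 2R, 42.7% of 3L, 46.4% of 3R and 48.9% of 2L. In fixed windows of 100 kb, 52 of 225 on the X, or 23.1%, held no peak, while the share was 14.3 to 21.6% on the arms. The longest stretch ran for 344 kb, from 2684455 to 3028619, between a peak scoring 89.35 and one scoring 73.67. It lay within the peak-rich part of the X described above. The others of the 5 longest were 336 kb from 14112504 to 14448713 and 328 kb from 17072983 to 17401054, then 288 kb from 18759320 to 19047307 and 287 kb from 13232280 to 13518870. The longest gap of each arm was longer than that of the X, at 351 to 424 kb.

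Peaks at the edges of these stretches were of all strengths. The gap that ends at 19047307 bordered the sixth strongest peak of the X, with a score of 281.41. The gap from 17072983 was bordered by scores of 183.72 and 130.35, and that from 14112504 by 18.36 and 9.82. In all, 13 X peaks had no other peak within 100 kb. Their median score was 15.4 and their scores ran from 10.8 to 206.84, the last being the isolated peak at X:12097372-12097918.

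Adjacent X peaks often lay close together. The window of 100 kb with most X peaks, 1800001 to 1900000, held 13 of them with a median score of 51.5, and the next, 3600001 to 3700000, held 12 with a median of 70.5. Of the 545 gaps between adjacent X peaks, 113 were of 1 kb or less, or 20.7% (17.4 to 24.4%), against 399 of 2581, or 15.5% (14.1 to 16.9%), on the 4 arms. The share per arm was 14.5% on 3R, 14.9% on 3L, 15.2% on 2R and 17.5% on 2L. The difference of 5.27 percentage points had an adjusted p of 0.00667 in Fisher's exact test, again chosen after the data were seen. It rested on gaps between 500 bp and 1 kb, since at a limit of 500 bp the difference was 0.517 points (adjusted p = 0.708, Fisher's exact test). At 2 kb it was 5.51 points (Fisher's exact test, adjusted p = 0.0120). Gaps under 100 bp, where neighbouring peaks nearly touch, were 13 on the X, or 2.39% of its gaps. Each arm had 14 to 20 of them, or 2.29 to 3.44%.

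**Figure D4:**
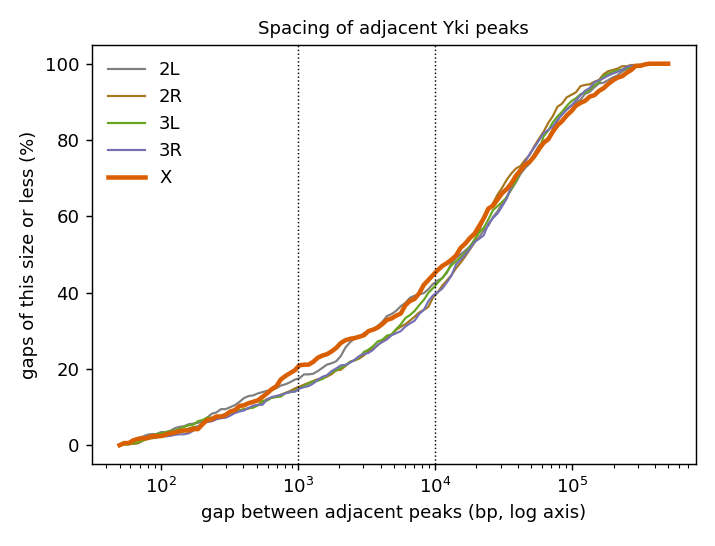
Share of gaps between adjacent peaks that are of a given size or smaller, by arm, with gap size in bp on a log axis. Dotted lines mark 1 kb and 10 kb. The X line (thick orange) runs with the others up to about 500 bp and stands above them at 1 kb, at 20.7%.

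When peaks no more than 10 kb apart were joined, the X list formed 126 runs of 2 or more peaks and 172 single peaks. Runs were 42.3% (36.6 to 48.1%) of these 298 units on the X and 36.4% (33.9 to 38.8%) of the 1535 units on the arms, a difference of 5.93 percentage points that did not pass Fisher's exact test (p = 0.0577). At a joining gap of 20 kb the difference was -0.539 points and in the strongest 50% of the list -2.84 points, with p-values of 0.887 and 0.419 in Fisher's exact test. There were 67 runs of 2 peaks, 31 of 3, 13 of 4 and 15 of 5 or more. The 15 largest runs held 95 peaks, or 17.4% of those on the X.

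Single X peaks and X peaks in runs had the same median score, 30.4, but the upper quartile was 52.8 for single peaks and 74.3 in runs. On the 4 arms the median was 29.8 for single peaks and 31.6 in runs, with upper quartiles of 64.6 and 73.5. The median over X runs of the strongest peak in a run was 63.7 for runs of 2, 76.4 for runs of 3 or 4 and 121 for runs of 5 or more. A larger run has more peaks from which the strongest is taken. On the 4 arms these medians were 57.9, 82.3 and 169. Of the 60 X peaks in the strongest 10% of the list, 46 (76.7%) lay in runs, against 68.5% of all X peaks, a difference not tested. The other 14 stood alone. Those 46 were spread over 35 runs, of which 9 held more than 1 of them. Neighbouring scores were hardly related, with a Spearman correlation of 0.06 and a Pearson correlation of -0.02 over the 248 adjacent pairs within 10 kb on the X. Over the 297 pairs further apart the values were 0.08 and 0.08.

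The run with most peaks on the X held 10, over 25.2 kb from 3566124 to 3591307, with scores of 16.37 to 196.11 and a median of 77.4. Its strongest peaks were X:3570712-3572075 with 196.11, X:3589449-3589979 with 167.42, X:3581038-3582330 with 126.01 and X:3572139-3572673 with 116.43. Peaks with 83.69 at 3583034, 71.02 at 3566124 and 51.16 at 3586075 came after them, and the weakest 3 scored 29.43, 19.92 and 16.37. This run was the first of several close together. A single peak at X:3612614-3613213 with 189.88 followed 21.3 kb after it. Then came a run of 6 from 3634696 to 3652182, led by 197.99 at its first peak, and a run of 5 from 3669865 to 3675126, led by 168.61. The whole stretch of 109 kb held 22 peaks with a median score of 73.9, a grouping made after the values were seen.

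The second run held 9 peaks in 13.4 kb, from 2187341 to 2200704, with strong and weak peaks interspersed along it. In order of position the scores were 133.63, 15.65, 171, 39.35, 32.28, 233.49, 21.81, 131.99 and 128.72. The strong peaks of this run were 642 to 1192 bp wide and the weaker ones 239 to 738 bp. The second strongest peak of the X, at 2211375 with 345.21, began 10.7 kb after this run and so fell just outside it. It opened a run of 4 whose other peaks scored 40.04, 21.26 and 27.58. Both runs together placed 13 peaks in 47.0 kb.

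The third run also held 9 peaks, over 19.5 kb from 7584799 to 7604292, with a median score of 51.5. Its strongest were X:7596576-7597035 with 168.02, X:7586418-7587030 with 148.78 and X:7599085-7599992 with 102.58, and it held a wide peak of 1911 bp at 7589725 with 85.57. The fourth run held 7 peaks over 21.9 kb, from 1825513 to 1847384. It began with a weak pair of 12.14 and 9.69 and, after 8980 bp without a peak, went on with scores of 74.56, 101.57, 86.98, 39.35 and 51.54. The fifth, with 7 peaks over 24.4 kb from 12543890 to 12568325, was weak throughout, with a highest score of 50.77 and a median of 23.5. A further run of 7 from 12819502 to 12832519 had a median of 22.97, and in it lay the widest peak of the X.

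**Figure D5:**
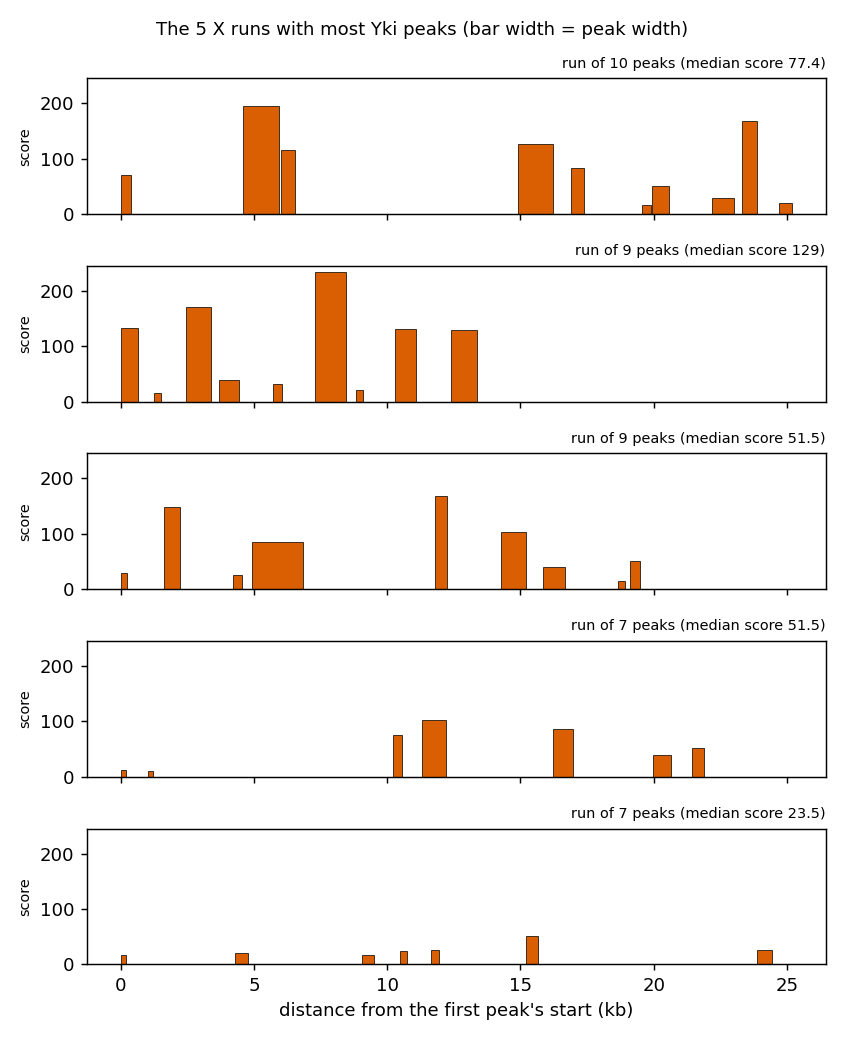
The 5 runs of X peaks with most members, drawn from the first peak's start in kb. Bar height is the authors' score and bar width the width of the peak. Strong and weak peaks are interspersed in the run of 9 with a median of 129, and the run at the bottom stays at or below 50.77.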

How the data were processed

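Per the labels, 3 Yki ChIP and 3 input libraries were made from 8 to 16 h embryos. The deposited file is 1 peak list for the series, with 1 score per peak from the authors' peak caller (MACS, FlyBase release 5, per the file headers). MACS2, BWA, the build BDGP5 and CASAVA (1.7.0.3 and 1.7.0.2) are listed per the submitters' processing notes. Parameters, and how libraries were combined, are not given in the sources used here. Depth per library is unknown.

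The furthest peak end on an arm stood for its length. Peaks were joined into runs at gaps of at most 10 kb. Densities were compared by two-sided exact conditional binomial tests over 4 pairs of arms, shares by two-sided Fisher's exact tests, with Benjamini-Hochberg adjustment and exact Clopper-Pearson 95% intervals. Tests were checked on simulated data with independent peaks, so the check does not cover the clustering of the real peaks. The members, lists and tests were chosen with earlier results of these data known. Peaks are named by rule: the 20 highest, 5 widest and 5 lowest-scoring, the 5 runs with most peaks, the 5 longest gaps, and the 3 richest and 3 poorest 1 Mb bins. Planned comparisons with gene models, gene lists and motifs were not run, since the gene table at hand follows release 6. Software was scipy 1.17.1, matplotlib 3.10.9, pandas 2.3.3 and numpy 2.4.6 under Python 3.11.15.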

Additional observations from a re-analysis of the deposited data

How the results depend on the processing

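Of the density ratios of X to each arm, 17 of 20 values had the same direction and the same call when the list was limited by score, runs were counted once, or arm length or the proximal 1 Mb was changed. In the strongest 25% of the list the ratio to 2L turned to 1.0023 and that to 2R (0.7677) no longer passed. With runs counted once the ratio to 3R (0.8334) passed. Without the 2 densest 100 kb windows of the autosomal arms, both on 2L and picked for their peak number, the ratio to 2L turned to 1.0578 by construction. The share of strong peaks passed under no alternative. Its difference turned to -0.3432 points for the strongest 10% with U and Uextra left out when levels were set, and to 1.0824 and 1.5528 points for the strongest 50% and 25% with 1 peak per run. The share of runs turned to -0.5385 points at 20 kb and -2.8359 in the strongest 50%. Of the comparisons chosen after seeing the data, the telomeric share with 1 peak per run (4.17) no longer passed. Neither did the gap share at 500 bp (0.5174). The share of peaks wider than the list median passed in the strongest 50% (-8.0435). It passed under no other alternative, with -3.41 points at 1 peak per run. For changes other than the 2L windows the cause was not tested. Gap shares cannot be taken from 1 peak per run. No paired analysis was possible because the deposited scores are not split by library, which also means that no replicate could be left out. Depth limits which weak sites were called, by an amount that is unknown.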
